A study of Homo sapiens with 6 samples.

Results

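The core pluripotency factors described here are 10 genes chosen by name: POU5F1, SOX2, NANOG, SALL4, LIN28A, LIN28B, PRDM14, ZFP42, UTF1 and DPPA4. All 10 had a row among the 53719 rows of the gene count table, 9 had counts, and these 9 were among the 19721 genes with enough counts to be tested. SOX2 was listed at 0 in every library. The cells were H9, a long-established line of human embryonic stem cells, grown in RSeT, a commercial medium for a naive-type state. They were transfected for 48 h with a gapmer against ALR, the alpha satellite repeat of human centromeres (the knockdown group, titled Sense3; 3 libraries), or with a control gapmer (3 libraries), and total RNA was sequenced. Gapmers are short antisense strands whose central DNA stretch makes RNase H cleave the RNA they pair with. All 6 libraries thus share the line, the medium, the transfection and the time. The labels do not say whether the libraries a, b and c of a group came from separate cultures, so the p-values measure the spread between these libraries, which may be technical. The depletion of alpha satellite RNA itself was not analysed here.

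OCT4 (made from POU5F1), SOX2 and NANOG are the transcription factors at the centre of the network that keeps embryonic stem cells undifferentiated. They bind many of the same enhancers, often through an octamer and a SOX element side by side, and they sustain their own and each other's transcription. SALL4, PRDM14, ZFP42 (REX1), UTF1 and DPPA4 are nuclear proteins of the same state, and LIN28A and LIN28B are RNA-binding proteins that block the processing of let-7 microRNAs, which would otherwise repress genes of undifferentiated cells.

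Promoter sequence of 6 of the 10 genes (SOX2, NANOG, LIN28B, ZFP42, UTF1 and DPPA4) was matched by symbol in RefSeq's table for GRCh38.p14. The 250 bases upstream of each start were searched on both strands for the octamer core ATGCAAA, the SOX element ACAATG and the joint element TTTGCATNACAATG, which contains the other two. The NANOG and SOX2 stretches are shown because they are the ones in this set that hold an octamer core (capitals), at chr12:7789259-7789318 and chr3:181711798-181711857 (both on the plus strand).
NANOG: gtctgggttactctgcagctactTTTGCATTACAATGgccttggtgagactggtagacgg
SOX2: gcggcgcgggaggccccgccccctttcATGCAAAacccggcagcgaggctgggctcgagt
The NANOG stretch holds the whole joint element, starting 120 bases upstream of the start, and the SOX2 stretch holds the octamer core alone, 100 bases upstream. Of 35116 promoters in the table, 3.94% hold the octamer core, 9.29% the SOX element and 0.0057% the joint element, which occurs in 2 promoters, those of NANOG and NRARP. Of the other members searched, LIN28B has a SOX element in 1 of its promoter entries. A match of letters is a description, not a measured binding site.

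Total counts were 25087629 to 36576752 per library. Knockdown library a stood apart from the rest, with counts in 29678 rows against 25898 to 26788 in the other 5, so the members' differences are also given without it. Levels below are CPM, the usual depth-scaled unit of counts, with TMM scaling, and values of a group are given in the order of libraries a, b, c. The errors are SD over n = 3 libraries unless SE is given. Differences are log2 fold changes of knockdown over control with their SE from edgeR's quasi-likelihood test. The adjusted p is the Benjamini-Hochberg value over all genes tested, with a threshold of 0.05.

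None of the 9 tested members passed that threshold (0 of 9), while 0.786% of all genes tested did. At an unadjusted p under 0.05 there were 3 of 9 (POU5F1, LIN28A and LIN28B), against 14.3% of all genes (2 members against 6.68% in the higher direction, and 1 against 7.57% in the lower). With DESeq2's Wald test 1 member passed (POU5F1), and with limma-voom 0 did. The groups did not overlap in 5 members, against 18.9% of all genes. Of these, POU5F1 and LIN28A lay higher in the knockdown libraries (9.55% of all genes did so) and LIN28B, PRDM14 and DPPA4 lay lower (9.37%). The median log2 fold change was 0.0020 over the 9 members and 0.020 over all genes tested, and 5 of the 9 were above 0, against 54.4% of all genes. The members thus did not share a direction, and the differences of single members were at most 0.42 in size on the log2 scale. In bulk RNA, fewer cells of a type and less RNA per cell cannot be told apart.

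**Figure D1:**
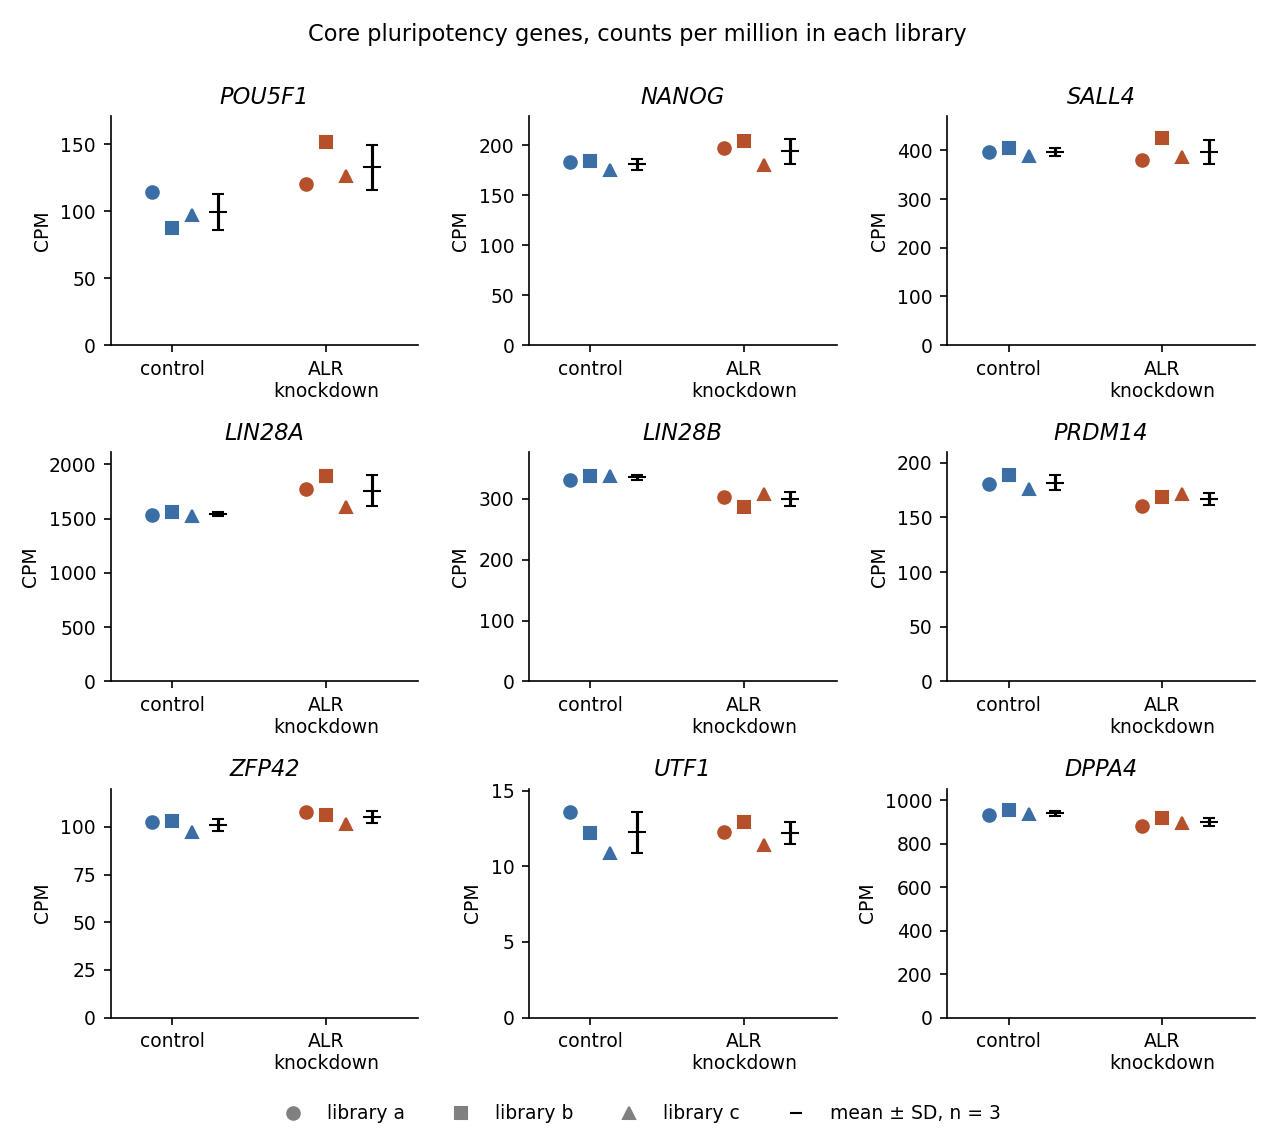
CPM of the 9 tested genes in each library (vertical axes start at 0; circles, squares and triangles are libraries a, b and c; blue is control and red-brown ALR knockdown; bars are mean ± SD, n = 3). POU5F1 and LIN28A sit higher in the 3 knockdown libraries, LIN28B, PRDM14 and DPPA4 lower, and the remaining 4 overlap.

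Among the factors of the central circuit, POU5F1 had the largest difference of the 9 members. POU5F1 (ENSG00000204531.17, chromosome 6, protein-coding) had 120.3, 152 and 127 CPM with the ALR gapmer and 114, 87.8 and 97.4 CPM with the control gapmer. All 3 knockdown libraries were above all 3 controls, but the gap between knockdown library a and control library a was small. The means were 133 ± 16.9 and 99.8 ± 13.3 CPM (n = 3 each), and the log2 fold change was 0.42 ± 0.10 (SE; 95% interval 0.19 to 0.65; edgeR adjusted p = 0.0948). The difference was 0.48 without knockdown library a (edgeR adjusted p = 0.0731) and 0.30 without knockdown library b, the highest one (edgeR adjusted p = 0.303). Over 15 alternative settings the difference ran from 0.30 to 0.53, with adjusted p from 1.37e-05 to 0.421, and it passed the threshold in 3: with no low-count filter, with DESeq2's Wald test (adjusted p = 0.00578) and without knockdown library c (edgeR adjusted p = 0.0441). POU5F1 also varied more within groups than any other member: its coefficient of variation was 12.7% in knockdown and 13.4% in control libraries.

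The POU5F1 row is uncertain, in part because the gene has close copies elsewhere in the genome. Of all 50-base words of its principal transcript in GENCODE 29, 63.4% occur in transcripts of other genes on either strand. The retrogene POU5F1B shares 35.5% of them, the pseudogene POU5F1P3 30.9% and POU5F1P4 22.8%. All 3 copies were listed at 0 in all 6 libraries. How the authors' counting treated reads that fit several places is not given in the sources used here. In addition, 248 of the gene's 2896 exonic bases overlap TCF19 on the opposite strand, a gene with 9.36 to 10.6 CPM. POU5F1 is also on the same chromosome, 6, as DDX39B, CSNK2B and GTF2H4. Those genes had at most 3 counts in any library, as described below for SOX2. Other rows of chromosome 6 had counts, among them TCF19 and LIN28B (266 to 386 and 7790 to 12288 per library). Whether the POU5F1 row was affected like those of DDX39B, CSNK2B and GTF2H4 was not tested.

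NANOG (ENSG00000111704.10, chromosome 12), the homeobox factor of the circuit, had 197, 204 and 180.2 CPM with the ALR gapmer and 183, 184 and 175 CPM with the control gapmer. The groups overlapped, since knockdown library c was below control libraries a and b. The log2 fold change was 0.10 ± 0.07 (SE; 95% interval -0.04 to 0.25; edgeR adjusted p = 0.530). NANOG too shares sequence with copies, in 16.9% of its 50-base words, of which the retrogene NANOGP8 holds the most (12.1%) and NANOGP1 the next most (8.59%). Unlike the copies of POU5F1, these 2 had counts. NANOGP8 had 71.9 to 84.6 CPM in knockdown and 68.8 to 80.3 CPM in control libraries. Its count was 0.402 ± 0.0109 of the NANOG count in knockdown and 0.416 ± 0.0214 in control libraries (n = 3 each; exact permutation p = 0.40, two-sided). The smallest p this permutation test can give with these libraries is 0.1, so it does not show that the ratio was unchanged. NANOGP1 had 32.3 to 33.3 CPM in knockdown and 26.6 to 30.5 CPM in control libraries, so its groups did not overlap, but the difference did not pass (log2 fold change 0.22 ± 0.07; edgeR adjusted p = 0.209). Reads of NANOG and its copies could be divided among these rows.

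SOX2 (ENSG00000181449.3, chromosome 3), the partner of OCT4 on joint elements, was listed at 0 in all 6 libraries. A count of 0 allows up to 3 counts, or 0.0826 to 0.119 CPM depending on the library, as far as counting error goes. The 0 is not read as absence here, because genes that every cell uses were listed at or near 0 as well. DDX39B, an RNA helicase of messenger RNA export, had 0 counts in all 6 libraries. CSNK2B and GTF2H4, subunits of casein kinase 2 and of the transcription factor TFIIH, had at most 3 counts in any library. These 3 genes were chosen after their values were seen. They are all on chromosome 6 and SOX2 is on chromosome 3, so their rows do not show what happened to the SOX2 row. ESRG, a listed gene of the undifferentiated state on chromosome 3, was also at 0 in all 6 libraries. SOX2 has a single exon and lies inside the long noncoding gene SOX2-OT, on the same strand, with 0 exonic bases shared in GENCODE 29. Which annotation the authors counted on is not given in the sources used here. SOX2-OT had counts, at 54.0, 43.6 and 53.9 CPM with the ALR gapmer and 61.2, 55.7 and 56.3 CPM with the control gapmer. Its knockdown libraries lay below the controls without passing the threshold (log2 fold change -0.19 ± 0.09; edgeR adjusted p = 0.342).

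The LIN28 pair lay in opposite directions. LIN28A (ENSG00000131914.10, chromosome 1), the form known to act mainly in the cytoplasm, where it recruits a terminal uridylyltransferase to the let-7 precursor, had 1771, 1890.0 and 1609 CPM with the ALR gapmer and 1533, 1561 and 1528 CPM with the control gapmer. The knockdown libraries were all higher, and they were also more spread, at 1757 ± 141 against 1541 ± 18.2 CPM (n = 3 each). The log2 fold change was 0.19 ± 0.07 (SE; 95% interval 0.03 to 0.35; edgeR adjusted p = 0.269), and 0.18 without knockdown library a (edgeR adjusted p = 0.3896). LIN28B (ENSG00000187772.7, chromosome 6), its paralog, had 304, 286 and 308 CPM with the ALR gapmer and 331, 337 and 338 CPM with the control gapmer. Here the knockdown libraries were all lower (299 ± 11.5 against 335 ± 3.96 CPM, n = 3 each). The log2 fold change of LIN28B was -0.16 ± 0.06 (SE; 95% interval -0.30 to -0.03; edgeR adjusted p = 0.266), and -0.18 without knockdown library a (edgeR adjusted p = 0.348). Without knockdown library c, both LIN28A (0.23; edgeR adjusted p = 0.0171) and LIN28B (-0.20; edgeR adjusted p = 0.0410) passed the threshold. Neither passed in any other of the 15 alternatives, over which the adjusted p ran from 0.0171 to 0.593 for LIN28A and from 0.0410 to 0.609 for LIN28B.

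The ratio of LIN28A to LIN28B counts, a comparison chosen after these values were seen, was 5.83, 6.60 and 5.22 with the ALR gapmer and 4.63, 4.63 and 4.52 with the control gapmer. The ratio was higher in every knockdown library than in every control, with means of 5.88 ± 0.690 and 4.59 ± 0.0671 (n = 3 each), or 0.35 apart on the log2 scale. Since LIN28A lay higher and LIN28B lower in every knockdown library, the ratio had to lie apart between the groups, and no test of it is given. Both rows were nearly free of shared sequence (1.82% of the 50-base words of LIN28A and 1.1% of those of LIN28B). LIN28B overlaps LIN28B-AS1 on the opposite strand over 67 exonic bases. LIN28B spans 146717 bases of genome and LIN28A 18945. When expression was freed of its trend with gene span in every library, an alternative added after the data were seen, the differences were 0.14 for LIN28A and -0.15 for LIN28B.

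**Figure D2:**
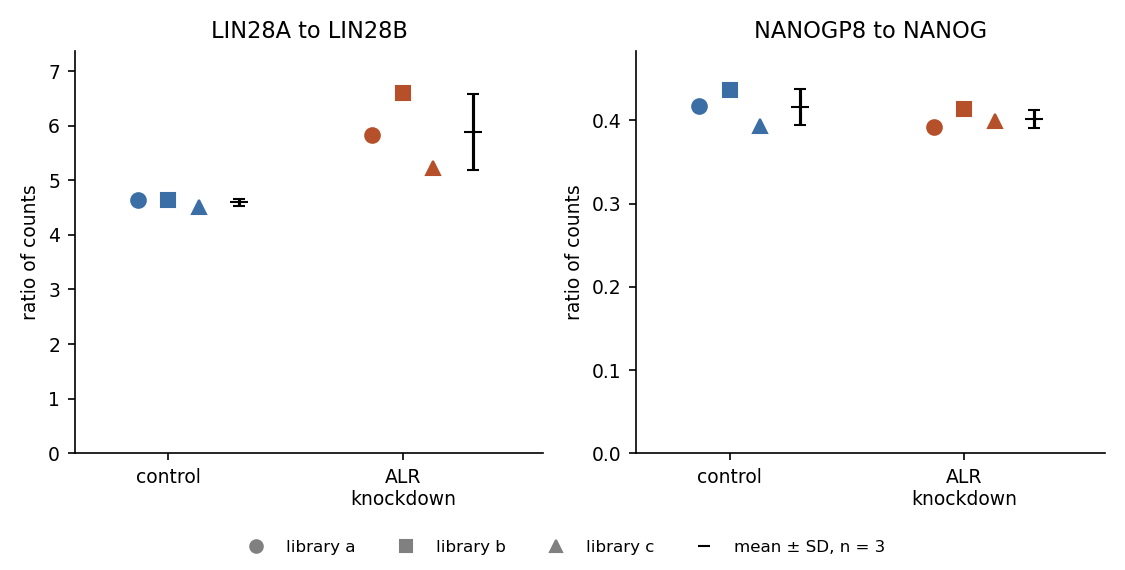
Ratio of LIN28A to LIN28B counts (left) and of NANOGP8 to NANOG counts (right) in each library (axes start at 0; symbols are libraries a, b and c; bars are mean ± SD, n = 3). The LIN28A to LIN28B ratio is 5.22 to 6.60 in knockdown and 4.52 to 4.63 in control libraries, whereas the ratio of the NANOG copy to NANOG overlaps between groups.

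Both LIN28 messages are known let-7 targets as well as let-7 blockers, so the seed matches in their 3′ untranslated regions are shown. All 8 let-7 microRNAs of the RefSeq table share the seed (bases 2 to 8, in capitals), here on let-7a, and the capitals in the messages mark its match, CTACCTC, searched on the transcript's own strand.
let-7a-5p: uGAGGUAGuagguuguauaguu
LIN28A site: gcacagcctattgaaCTACCTCatttttg
LIN28B site 1: acccggttgcaaagtCTACCTCatgcaag
LIN28B site 2: tactgatgatagtaaCTACCTCtgagttt
LIN28B site 3: gtttacagcaaaaggCTACCTCatagttg
LIN28B site 4: aaatgatggtgttgaCTACCTCttgaatc
Counted from the first base after the stop codon in GENCODE 29, the LIN28A site starts at base 905 of 3264, and the LIN28B sites start at bases 44, 2471, 2653 and 4092 of 4549. SALL4 has 1 match, and the other 7 members have 0. Of 19176 protein-coding genes with a 3′ untranslated region, 8.69% hold at least 1 match. Mature let-7 was not analysed here: the 11 rows named for let-7 hairpins were all listed at 0.

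The remaining nuclear factors differed less. PRDM14 (ENSG00000147596.3, chromosome 8), a repressor that works with the Polycomb complex PRC2 in stem and germ cells, had 160.6, 168 and 171 CPM with the ALR gapmer and 181, 189 and 176 CPM with the control gapmer. Its knockdown libraries were all lower, by a log2 fold change of -0.13 ± 0.06 (SE; 95% interval -0.26 to 0.01; edgeR adjusted p = 0.391). DPPA4 (ENSG00000121570.12, chromosome 3), a chromatin protein that pairs with DPPA2, had 883, 921 and 895 CPM with the ALR gapmer and 933, 954 and 936 CPM with the control gapmer. The groups did not overlap, but the log2 fold change was only -0.06 ± 0.06 (SE; 95% interval -0.20 to 0.07; edgeR adjusted p = 0.683). Its partner DPPA2 was far lower in counts, at 245 to 399 per library.

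SALL4, ZFP42 and UTF1 overlapped between groups. SALL4 (ENSG00000101115.12, chromosome 20), a zinc finger factor that binds POU5F1 regulatory DNA and the deacetylase complex NuRD, had 379.6, 425 and 386 CPM with the ALR gapmer and 397, 404 and 388 CPM with the control gapmer. Knockdown library b was the highest of the 6 and library a the lowest, with a log2 fold change of 0.0020 ± 0.067 (95% interval -0.14 to 0.15; edgeR adjusted p = 0.993). ZFP42 (ENSG00000179059.9, chromosome 4), a zinc finger protein long used as a marker of undifferentiated cells, ran from 101 to 108 CPM in knockdown and from 97.4 to 103 CPM in control libraries (log2 fold change 0.06 ± 0.06, 95% interval -0.08 to 0.19; edgeR adjusted p = 0.719). UTF1 (ENSG00000171794.3, chromosome 10), a chromatin-bound regulator and target of OCT4 and SOX2, ran from 11.4 to 12.9 CPM in knockdown and from 10.9 to 13.6 CPM in control libraries. Its log2 fold change was -0.0012 ± 0.11 (95% interval -0.24 to 0.24; edgeR adjusted p = 0.998). UTF1 is the member with the fewest counts of those tested, 289 to 431 per library, and its transcript has the highest GC content, 76.8%, against 38.1% to 57.8% in the other 9. Without knockdown library a, the log2 fold changes were 0.088 for NANOG, 0.031 for SALL4, -0.10 for PRDM14, 0.039 for ZFP42, -0.0036 for UTF1 and -0.053 for DPPA4, with edgeR adjusted p from 0.589 to 0.996. The signs of SALL4, ZFP42 and UTF1 were not settled: they flipped in 6, 1 and 5 of 15 alternatives.

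**Figure D3:**
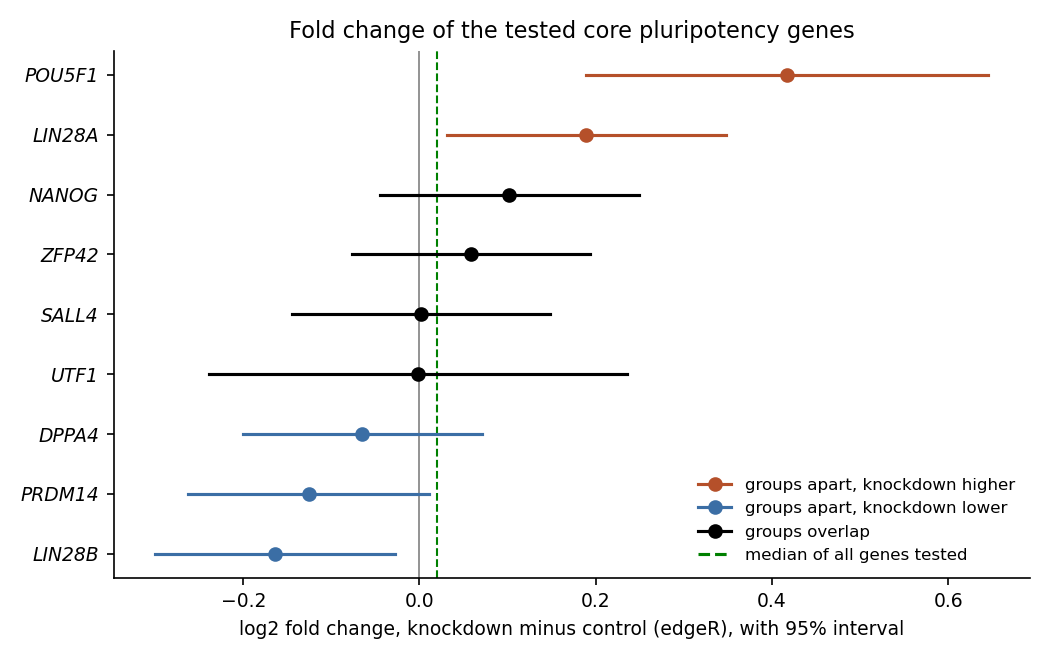
Log2 fold change of each tested gene with its 95% interval, ordered by size (red-brown and blue mark genes whose groups do not overlap, black those that overlap). POU5F1 at 0.42 and LIN28A at 0.19 lie above 0 and LIN28B at -0.16 below it with intervals clear of 0, before adjustment over all genes; the dashed line is the median of all genes tested, 0.02.

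Differences between libraries of a group were shared by several members. Knockdown library b was the highest of all 6 libraries for 4 of the 9 members (POU5F1, NANOG, SALL4 and LIN28A) and the lowest for LIN28B. Control library c was the lowest for 4 (NANOG, LIN28A, ZFP42 and UTF1) and knockdown library a for 3 (SALL4, PRDM14 and DPPA4). The matching shares over all genes were not determined, so these counts are not read as particular to the members. The summed level of the members was 3935, 4167 and 3789 CPM with the ALR gapmer and 3788, 3833 and 3746 CPM with the control gapmer. LIN28A alone held 42.5% to 45.4% of that sum in knockdown and 40.5% to 40.8% in control libraries. The genes whose levels followed those of POU5F1 most closely over the 6 libraries were TIMM13, NME4 and COTL1, with root mean square distances of 0.0556, 0.0658 and 0.0724 on the log2 scale among 8994 genes of sufficient count. This is a likeness over 6 libraries and no more.

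Levels between genes were compared per kb of the principal GENCODE 29 transcript. In control libraries LIN28A was highest, at 384 ± 4.54 CPM per kb, followed by DPPA4 at 334 ± 4.18. PRDM14 (77.6 ± 2.76), SALL4 (76.1 ± 1.55) and POU5F1 (70.3 ± 9.39) came next and did not differ beyond their spread, nor did POU5F1 and LIN28B (60.9 ± 0.720). ZFP42 (38.1 ± 1.19), NANOG (34.9 ± 1.01) and UTF1 (10.6 ± 1.17) were lowest. In knockdown libraries LIN28A (438 ± 35.2 CPM per kb) and DPPA4 (319 ± 6.95) again led. There POU5F1 came next (93.7 ± 11.9), ahead of SALL4 (76.2 ± 4.66) and PRDM14 (71.1 ± 2.33), which overlapped within their spread. LIN28B followed at 54.4 ± 2.08. ZFP42 (39.7 ± 1.26) and NANOG (37.4 ± 2.40) did not differ beyond their spread, and UTF1 was again last at 10.5 ± 0.640 CPM per kb. The places of POU5F1 and NANOG rest on rows that share sequence with copies, and the order depends on the transcript taken for the length.

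**Figure D4:**
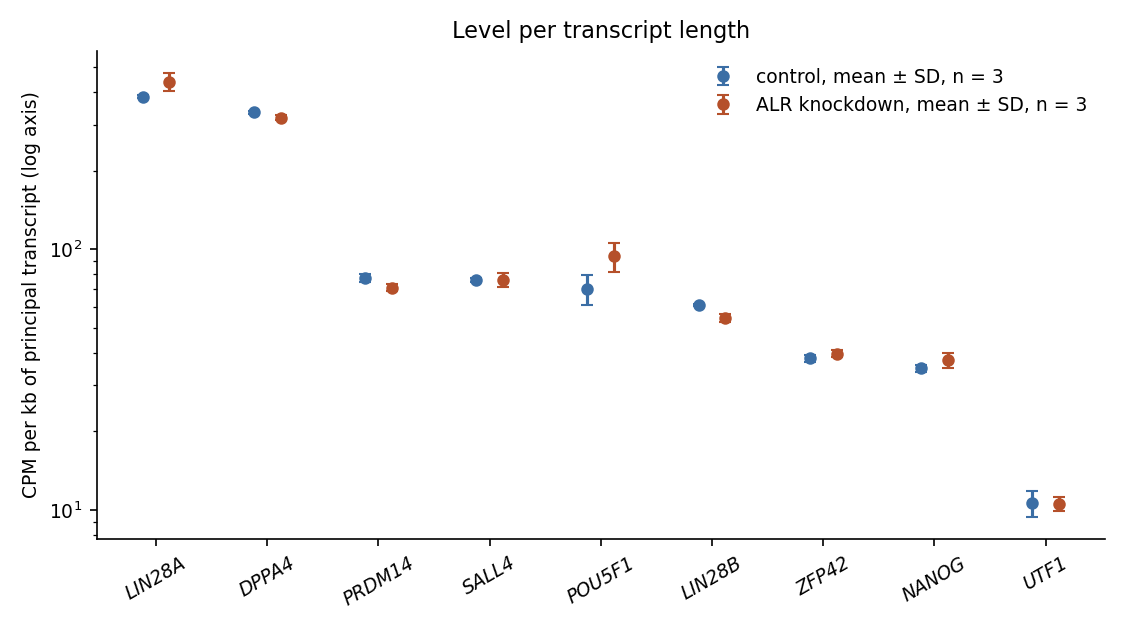
Level per kb of principal transcript (log axis), mean ± SD over 3 libraries, for control (blue) and ALR knockdown (red-brown), ordered by the control level. LIN28A and DPPA4 lie above 300 CPM per kb in both groups, UTF1 lies near 10.5, and POU5F1 shows the widest gap between groups.

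The labelled cell type was checked against lists of markers, naming the most abundant genes of each list and the one with the smallest p. Levels here are CPM, not per length. TDGF1, L1TD1 and DNMT3B, further genes of undifferentiated cells, had group means of 548 to 549, 986 to 991 and 1907 to 2056 CPM. The naive markers with a row (19) summed to 155 to 166 CPM in knockdown and 159 to 165 CPM in control libraries. TFAP2C (53.4 to 61.4 CPM), TFCP2L1 (23.9 to 32.2 CPM), DPPA3 (18.1 to 21.9 CPM) and KLF4 (16.5 to 19.1 CPM) were the most abundant of them. Many others were low or at 0: OLAH and KHDC1L were listed at 0, KLF17 had 1 to 10 counts and KHDC3L 3 to 14 counts per library, and ARGFX, DPPA5, ZFP57, TBX3, ALPPL2, DNMT3L and SUSD2 lay between 0.317 and 3.03 CPM. FGF4 had the smallest p of this list (log2 fold change 0.36 ± 0.13; edgeR adjusted p = 0.249). DNMT3L lay the other way, at 36 to 85 counts per library (log2 fold change -0.72 ± 0.27, edgeR adjusted p = 0.258). Of the 15 tested naive markers, 7 were above 0 and 8 below, against 54.4% of all genes above 0.

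The primed markers with a row (14) summed to 1378 to 1462 CPM in knockdown and 1445 to 1521 CPM in control libraries. FGFR1 (321 to 358 CPM), CDH2 (256 to 331 CPM), PTPRZ1 (226 to 241 CPM) and NLGN4X (155 to 224 CPM) were the most abundant, and THY1 was listed at 0. CDH2, the adhesion protein N-cadherin, had the smallest p (log2 fold change -0.22 ± 0.07; edgeR adjusted p = 0.192). Next came SALL2, VRTN, SFRP2, FAT3 and OTX2, with means over all libraries of 118.7, 95.8, 76.9, 35.1 and 32.5 CPM. Each of them lay above KLF4, and SALL2, VRTN and SFRP2 also lay above TFAP2C, the most abundant naive marker. Lower in this list were ZIC2 (9.47 to 13.4 CPM), DUSP6 (8.57 to 11.0 CPM), ZIC5 (6.92 to 9.05 CPM) and CYTL1 (0.554 to 1.94 CPM). These lower ones all lay below the naive marker KLF4 (16.5 to 19.1 CPM). Thus many primed markers were well detected in cells kept in a naive-type medium. Several naive markers and, of the primed ones, THY1 and CYTL1 were at or near 0. As for SOX2, a listed 0 of these markers is not read as absence.

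Of markers of other cell types, the lineage markers with a row (22) summed to 27.1 to 31.4 CPM in knockdown and 23.6 to 27.3 CPM in control libraries. Most of the sum was MIXL1 (9.94 to 14.1 CPM) and CXCR4 (5.15 to 6.84 CPM), both with all knockdown libraries above all controls, followed by PAX6 (1.51 to 2.64 CPM) and TBX6 (1.095 to 2.04 CPM). The log2 fold changes were 0.21 ± 0.11 for MIXL1 (edgeR adjusted p = 0.403) and 0.24 ± 0.13 for CXCR4 (edgeR adjusted p = 0.433). EOMES had the smallest p, at 10 to 16 counts in knockdown and 4 to 9 in control libraries (log2 fold change 1.16 ± 0.48; edgeR adjusted p = 0.304). CDX2, SOX17, HAND1 and NEUROG1 had at most 4 counts in any library. The fibroblast markers (9) summed to 92.6 to 102 and 95.5 to 108 CPM, mostly COL1A2 and COL1A1, with LUM and COL3A1 at 0 to 9 counts. PDGFRB had the smallest p, at 1.58 ± 0.229 against 0.715 ± 0.327 CPM (n = 3 each; log2 fold change 1.15 ± 0.37; edgeR adjusted p = 0.188). The part of these markers in the members' differences was not tested. No tested gene of the marker lists passed the threshold in edgeR: 0 of 15 naive, 0 of 13 primed, 0 of 11 lineage and 0 of 5 fibroblast markers. Of these, 2, 3, 1 and 3 had an unadjusted p under 0.05, against 14.3% of all genes.

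Of 34 tested partners of the network (35 listed transcription factors and cofactors), 3 passed the threshold, 1 higher and 2 lower, and 10 had an unadjusted p under 0.05, against 0.786% and 14.3% of all genes. This list, like the others, was chosen with earlier results of these data known, so its counts are not read as an excess. The median log2 fold change of the list was 0.03, against 0.02 over all genes. RBPJ, the DNA-binding factor of Notch signalling, fell from 415, 426 and 432 CPM with the control gapmer to 300.0, 303 and 309.9 CPM with the ALR gapmer. The groups were well apart (log2 fold change -0.48 ± 0.06; edgeR adjusted p = 0.00315), and RBPJ passed in all 15 alternatives. ETV5, an ETS factor downstream of FGF and ERK, rose from 14.2, 13.98 and 14.7 CPM in control to 20.3, 21.0 and 18.3 CPM with the ALR gapmer (log2 fold change 0.47 ± 0.09; edgeR adjusted p = 0.0281), and passed in 10 of 15. It lost the threshold without any 1 library other than knockdown library c (edgeR adjusted p up to 0.175). PRDM1 (BLIMP1), a repressor of the same protein family as PRDM14, fell from 11.2, 8.76 and 10.2 to 6.80, 6.08 and 4.51 CPM (log2 fold change -0.79 ± 0.16; edgeR adjusted p = 0.0409), and passed in 9 of 15. It lost the threshold without knockdown library b or any 1 control library (edgeR adjusted p up to 0.2496), and with library-size or upper-quartile scaling.

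Among 13 tested paralogs and copies of the members, 9 were above 0, against 54.4% of all genes (median log2 fold change 0.10, against 0.020 over all genes). Of the 13, 2 passed, both lower, and 6 had an unadjusted p under 0.05, against 0.786% and 14.3% of all genes. Those past the threshold were PRDM1, also counted among the network partners, and SOX21, a SOX family repressor related to SOX2. SOX21 fell from 41.3, 41.5 and 38.9 CPM with the control gapmer to 26.9, 28.0 and 22.9 CPM with the ALR gapmer (log2 fold change -0.64 ± 0.08; edgeR adjusted p = 0.00344), and passed in 14 of 15 alternatives, the exception being without control library a (edgeR adjusted p = 0.0636). Every knockdown library was below every control. Without knockdown library a, the differences were -0.47 for RBPJ, -0.91 for PRDM1 and -0.67 for SOX21, all past the threshold (edgeR adjusted p = 0.0149, 0.0243 and 0.00789). SOX1 and SOX21 share 1.62% and 0.446% of the 50-base words of SOX2.

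In the remaining 3 lists no gene passed in edgeR. Over all genes tested 54.4% were above 0, 14.3% had an unadjusted p under 0.05 and the median was 0.020, and the counts of the lists stand beside these. Of 34 tested genes of the undifferentiated state, 25 were above 0 and 9 had an unadjusted p under 0.05 (median log2 fold change 0.07). The most abundant gene of this list was the DNA methyltransferase DNMT3B (0.11 ± 0.07; edgeR adjusted p = 0.488). Of 24 tested genes of the LIN28 and let-7 axis, 14 were above 0 and 8 had an unadjusted p under 0.05 (median 0.04). IGF2BP3, an RNA-binding let-7 target, had the smallest p (log2 fold change -0.26 ± 0.09; edgeR adjusted p = 0.204), while its paralog IGF2BP1 was at 0.18 ± 0.08 (edgeR adjusted p = 0.311). Of 23 tested chromatin partners, 12 were above 0 and 5 had an unadjusted p under 0.05 (median 0.03). CBFA2T2, a corepressor that binds OCT4 and PRDM14, had the smallest p (log2 fold change -0.27 ± 0.07; edgeR adjusted p = 0.116), and CHD4, the ATPase of NuRD, was at 0.17 ± 0.08 (edgeR adjusted p = 0.350).

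**Figure D5:**
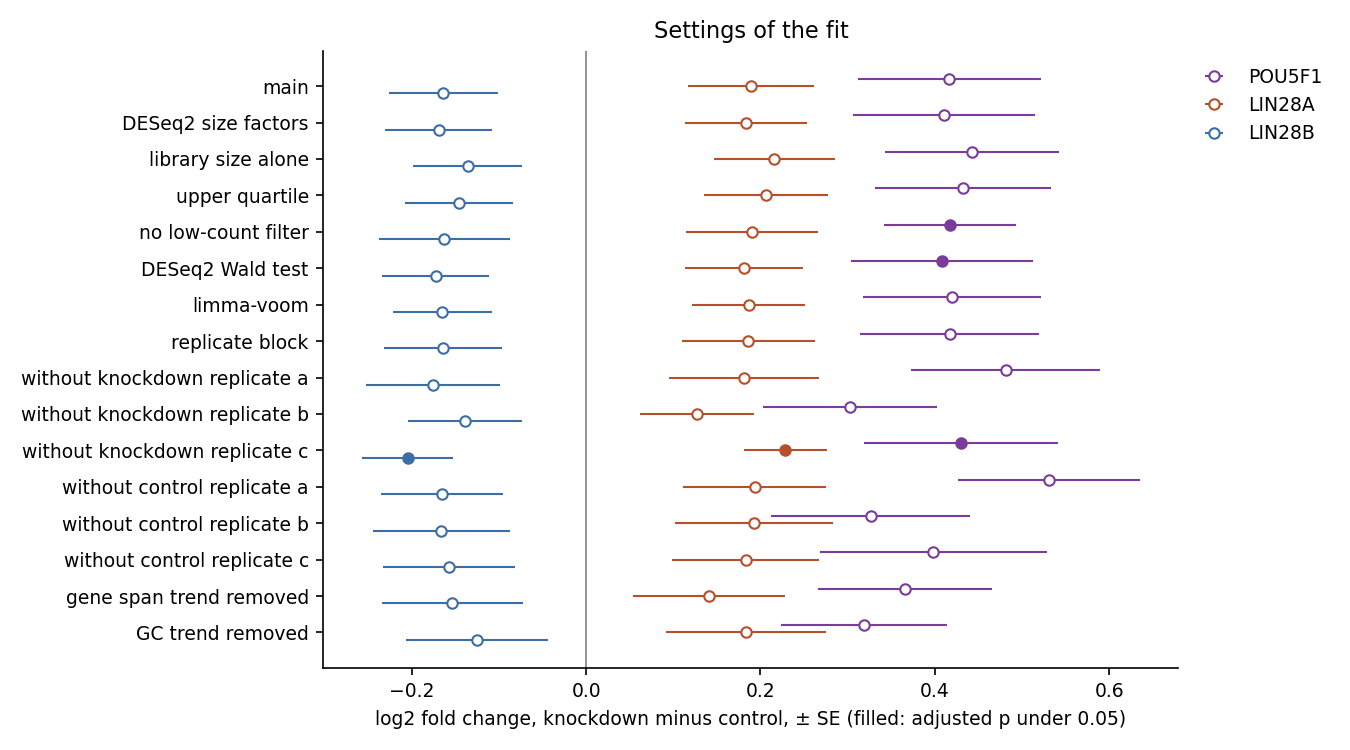
Log2 fold change ± SE of POU5F1, LIN28A and LIN28B with all libraries (main) and under each of the 15 alternatives; filled points passed an adjusted p of 0.05. All 3 genes keep their sign in all of them, POU5F1 passes in 3, and LIN28A and LIN28B pass without knockdown replicate c.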

How the data were processed

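RNA-seq counts of 6 H9 libraries were used. The authors deposited raw read counts per gene symbol, unscaled per the values. Per the submitters' processing notes, Trimmomatic 0.39, STAR 2.7.8a, featureCounts and Subread 2.14.2 were used with build hg38. The library kit keeps strand, per the labels' protocols. The tools' settings, the annotation, the use of strand in counting and the handling of reads that fit several genes are not given in the sources used here. The whole table was tested with edgeR 4.0.16 (R 4.3.3): filterByExpr, TMM scaling, quasi-likelihood test with the group as the only term, Benjamini-Hochberg adjustment over all genes. The common biological coefficient of variation was 0.103. Alternatives used DESeq2 1.42.0, limma 3.58.1 (voom), other scalings, no filter, the replicate letter as a block, each library left out, and 2 added after the data were seen. These 2 removed trends on gene span or GC content with 5 spline degrees of freedom, over the 81.0% of tested genes with a value. The procedure was tested on simulated counts with 200 changed genes. It recovered 41% of them at a log2 change of 0.5 (1 false call) and 87.5% at a log2 change of 1 (6 false calls). The changed genes were drawn from low and high counts alike and shared 1 dispersion, 0.0106. The tested members had mean counts of 371.5 to 50255.5, so these shares do not give the members' own chance of being called. Their 95% intervals are given above. The members' differences were at most 0.42 in size, so missing the threshold does not show that a member was unchanged. Lengths, overlaps and shared words came from GENCODE 29, promoters and microRNAs from RefSeq.

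All 10 members are described. From other lists, genes past the threshold were named, or else some of the most abundant and the 1 with the smallest p. A gene named by this rule is not reported here. Copies and neighbours of the members, DPPA2, SOX1, TDGF1, L1TD1, the primed markers of middle level and the markers given as low or at 0 fall outside that rule. They were named after their values were seen. The members and lists were chosen with earlier results of these data known.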

Additional observations from a re-analysis of the deposited data

How the results depend on the processing

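Signs of POU5F1, NANOG, LIN28A, LIN28B, PRDM14 and DPPA4 held in all 15 alternatives. With all libraries 155 genes passed (27 higher, 128 lower) and 0 members. The count was 1064 with no low-count filter (1 member), 501 with DESeq2's Wald test (1 member), 240 after removing the trend with gene span, 252 after removing that with GC, and 26 to 1309 when a library was left out (0 to 3 members). Library size alone gave 56 higher and 102 lower genes, upper-quartile scaling 45 and 112, and no filter 403 and 661. The members' median, 0.0020, ran from -0.052 to 0.078 when a library was left out; the extremes came without knockdown library b and without control library a.

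SALL4 changed sign to -0.0039 with DESeq2 size factors, -0.0063 with DESeq2's Wald test, -0.045 without the span trend and -0.028 without the GC trend, and ran from -0.055 to 0.031 when a library was left out (-0.013 without control library c). UTF1 was 0.026 with library size alone, 0.016 with upper-quartile scaling, 0.015 with limma-voom and -0.081 to 0.088 when a library was left out (0.022 without knockdown library c). ZFP42 was -0.0039 without the span trend. The cause was not tested. With the replicate block 393 genes and 0 members passed, against 155 genes without it. The correlations of deviations were -0.0109, 0.140 and -0.0104 for the letters a, b and c. Such values cannot show whether the letters pair the libraries, and the labels do not say. Of the tested members UTF1 had the fewest counts (289 to 431 per library), and SOX2 gave no value.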
